A study of Homo sapiens with 8 samples.

Results

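Interferon epsilon and the pathway through which type I interferons signal were followed in RNA sequencing of the cell line Panc 10.05, which was established from a human pancreatic ductal adenocarcinoma. The 9 genes described are the ligand IFNE, the receptor chains IFNAR1 and IFNAR2, the kinases JAK1 and TYK2, the transcription factors STAT2, IRF9 and IRF7, and the feedback inhibitor SOCS1. They were taken by symbol, 1 gene each, from the 58870 genes of the deposited count table. Of the 9, 7 had enough counts to be tested among 13860 tested genes, and IRF7 and SOCS1 did not.

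All 8 libraries came from this 1 line. In 4 of them the cells are labelled as control and in 4 as carrying a transgene that overexpresses ELAPOR1, a transmembrane protein of endosomes and lysosomes. The labels do not say how the transgene was delivered, whether the cells are a clone or a pool, what the control cells carried, or which libraries share a batch. They also do not say that replicates were separate cultures, so p-values measure only the spread between these libraries, which may be technical.

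ELAPOR1, listed under its older symbol KIAA1324, checked the labels. It had 0.150 ± 0.107 CPM (counts per 1e6 counts of the library, scaled between libraries) in control and 427 ± 2.28 CPM in ELAPOR1 libraries (n = 4 and 4, SD), and no library went against its label. Totals ran from 16558597 to 18128732 counts in control and from 13765504 to 17258149 in ELAPOR1 libraries (exact permutation p = 0.143, two-sided). All 6 epithelial markers looked at were detected, with a summed level of 11929 to 13196 CPM in control and 11159 to 11510 CPM in ELAPOR1 libraries. Of immune markers, CD3D, CD3E, CD3G and CD2 (T cells), MS4A1 (B cells), and CLEC4C, IL3RA and LILRA4 (plasmacytoid dendritic cells) were at 0 in every library. The general leukocyte gene PTPRC reached at most 0.061 CPM. The 5 myeloid markers summed to 89.4 to 96.5 CPM in control and 81.2 to 88.1 CPM in ELAPOR1 libraries, the 6 fibroblast markers to 2.95 to 4.32 and 2.71 to 3.19 CPM (COL1A2, DCN and LUM at 0), and the 4 endothelial markers to 1.62 to 2.13 and 0.576 to 0.998 CPM (CDH5 at 0). In bulk RNA, fewer cells making a transcript and less of it per cell cannot be told apart.

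Type I interferons act through a shared receptor made of IFNAR1 and IFNAR2. TYK2 is bound to IFNAR1 and JAK1 to IFNAR2, and the activated kinases phosphorylate STAT factors, STAT2 among them. STAT2 and IRF9 are parts of the complex ISGF3, which binds the interferon-stimulated response element in the promoters of interferon-stimulated genes. IRF7, itself such a gene, raises the output of interferon genes, while SOCS1 and USP18 damp the receptor. IFNE differs from the other ligands in being made constitutively by epithelia, above all in the female reproductive tract.

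Calls were made with edgeR's quasi-likelihood test at an adjusted p under 0.05, adjusted with the Benjamini-Hochberg method over all tested genes. Of the 7 tested genes of the pathway, 3 were called, IFNE and IRF9 higher and STAT2 lower in ELAPOR1 libraries. Over all tested genes, 44.7% were called, 22.6% higher and 22.1% lower, so the number called here is near the background. For 4 of the 7 (IFNE, IFNAR1, STAT2 and IRF9) the groups were fully apart in CPM, against 39.2% of all tested genes. Over all tested genes the median log2 fold change was 0.00087, and the median size of a called change was 0.28 on the log2 scale.

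**Figure D1:**
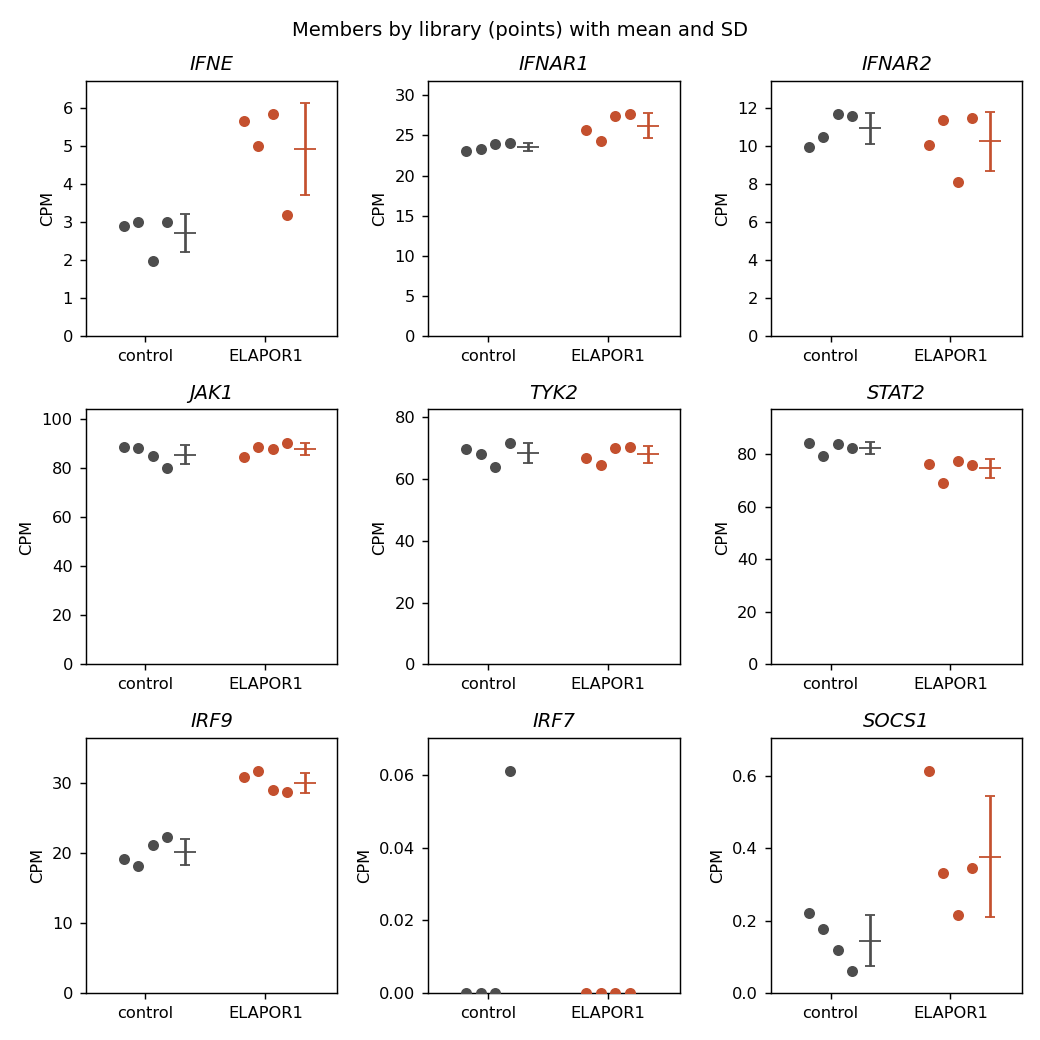
CPM of the 9 genes in each library (points, 4 control and 4 ELAPOR1), with the group mean and SD beside the points except for IRF7; each panel has its own scale from 0. The ELAPOR1 points of IFNE and IRF9 lie above all control points and those of STAT2 below, while the kinases overlap and IRF7 has a single count.

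IFNE, the epithelial interferon, rose 1.80-fold in ELAPOR1 libraries. Its level was 2.88, 3.01, 1.98 and 2.99 CPM in control replicates 1 to 4 and 5.65, 4.99, 5.83 and 3.17 CPM in ELAPOR1 replicates 1 to 4. The groups did not overlap, but ELAPOR1 replicate 4 lay just above the highest control library. Means were 2.71 ± 0.494 and 4.91 ± 1.21 CPM (n = 4 and 4, SD), and the log2 fold change was 0.84 (SE 0.193, adjusted p = 5.1e-04, edgeR). These levels rest on few reads, 488 counts over the 8 libraries, with 33 to 52 per control library and 55 to 92 per ELAPOR1 library.

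The other ligands gave almost nothing. Of 17 type I interferon genes on a list that includes IFNE, 14 had no count in any library, and IFNE was the only one tested. IFNB1, the interferon that most cell types can make, had at most 2 counts in a library, as did IFNA5. IFNE was therefore the type I ligand gene with a measurable count in both groups. Those counts could include RNA of an overlapping gene described below.

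IFNE (ENSG00000184995.7) is a single exon of 1475 bases on the minus strand of chromosome 9, at chr9:21480839-21482313 (GENCODE 29, GRCh38). It lies inside MIR31HG (chr9:21455642-21559669), a long noncoding RNA on the same strand that is also the host of a microRNA, and overlaps none of its 4 annotated exons. MIR31HG also rose. It had 2.77, 1.83, 2.22 and 2.19 CPM in the control replicates and 5.16, 5.86, 5.90 and 6.52 CPM in the ELAPOR1 replicates, again with no overlap. Its means were 2.25 ± 0.389 and 5.86 ± 0.557 CPM (n = 4 and 4, SD), and the log2 fold change was 1.37 (SE 0.170, adjusted p = 3.7e-08, edgeR).

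Because the genes lie on 1 strand, unspliced MIR31HG RNA would cover the IFNE exon, and reads from it cannot be told apart from IFNE transcripts in gene counts. With both genes summed, the log2 fold change was 1.11. Within libraries the order differed: ELAPOR1 replicate 4 had the highest MIR31HG and the lowest IFNE of its group. The ratio of IFNE to MIR31HG was 1.23 ± 0.337 in control and 0.856 ± 0.265 in ELAPOR1 libraries (n = 4 and 4, SD; two-sided exact permutation p = 0.171).

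The genes start 77.4 kb apart and their upstream sequences are unlike in composition. The 300-base RefSeq window at the start of MIR31HG, 250 bases before it to 50 after, is 77.7% G and C, and 94.65% of all windows have less. That of IFNE is 29.7%, and only 0.87% of windows have less (median 58.7%). The 250 bases before the IFNE start are shown because they are the stretch that would hold a promoter of its own. They run 5′ to 3′ on the minus strand, chr9:21482314-21482563 (RefSeq, GRCh38.p14), and overlap no exon of GENCODE 29.
IFNE: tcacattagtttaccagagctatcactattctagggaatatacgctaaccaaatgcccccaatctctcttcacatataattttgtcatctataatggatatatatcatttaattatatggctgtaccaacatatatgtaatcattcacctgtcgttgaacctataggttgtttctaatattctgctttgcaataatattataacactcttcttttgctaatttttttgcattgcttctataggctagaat

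The IFNE window was searched for GAAANNGAAA, the repeat at the core of the interferon-stimulated response element, and for TTCNNNGAA, the gamma-activated site to which STAT dimers bind. Neither was found on either strand. Of all 35116 windows, 3.57% hold the first and 7.66% the second. Of the 51 windows of 36 genes on a list of interferon-stimulated genes, 56.9% hold the first and 21.6% the second. The absence says only that these letters are not in this window.

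Around IFNE at 9p21, 9 other genes within 1 Mb were tested, with a median log2 fold change of -0.12. Of the 9, 5 were called, against 44.7% of all tested genes. MIR31HG was the only one of the 5 that was higher. MTAP, the next tested gene beyond it, which encodes an enzyme of methionine salvage, gave 0.04 (adjusted p = 0.399, edgeR). The cell cycle inhibitors CDKN2B and CDKN2A fell by 0.24 and 0.12 on the log2 scale (adjusted p = 1.0e-03 and 0.0196). MLLT3, a component of the super elongation complex, fell by 0.45 (adjusted p = 7.1e-04), and KLHL9, a substrate adaptor of a ubiquitin ligase, fell by 0.12 (adjusted p = 0.0397). FOCAD, DMRTA1 and CDKN2B-AS1 were not called, with log2 fold changes of 0.11, 0.16 and -0.14, and HACD4 was at 0 in every library. None of the other tested genes of the interval was called higher.

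**Figure D2:**
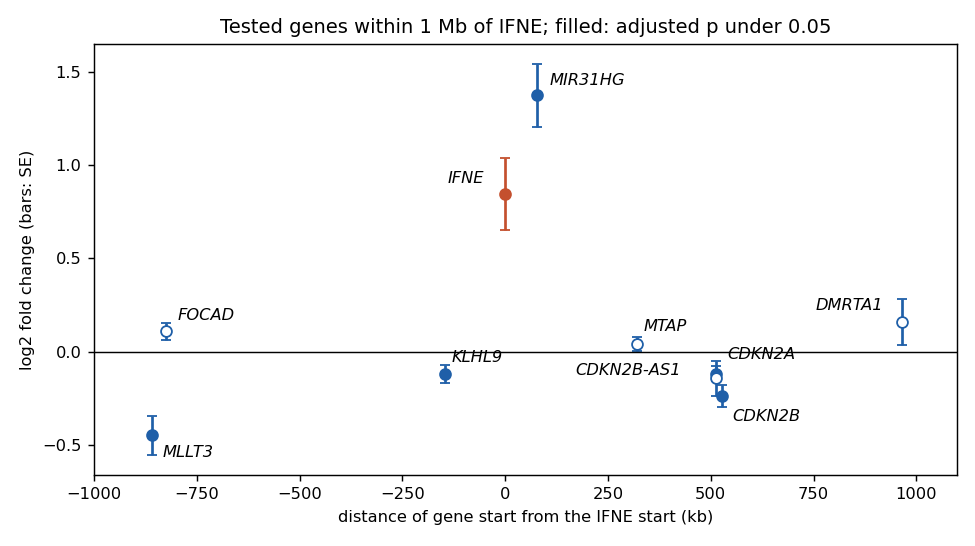
Log2 fold change (ELAPOR1 against control, bars SE) of IFNE and the 9 other tested genes within 1 Mb, against the distance of each gene's start from that of IFNE in kb; filled points have an adjusted p under 0.05. IFNE (0.84) and MIR31HG (1.37) stand above 0, and the other genes lie between -0.45 and 0.16.

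The genes whose profile over the 8 libraries was most like that of IFNE were sought by the root mean square difference of log2(CPM + 1), centred on each gene's mean. They were ZNF132, a zinc finger gene (0.156), G0S2, an inhibitor of triglyceride lipolysis (0.157), and SLC40A1, the iron exporter ferroportin (0.157). Their log2 fold changes were 0.87, 0.79 and 0.67. These are low genes with means of 1.26 to 2.07 CPM in control libraries, so the likeness carries much counting error.

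The receptor chains moved little. IFNAR1 (ENSG00000142166.13, chr21:33324477-33359862, plus strand), which binds TYK2, had 23.1, 23.2, 24.0 and 24.1 CPM in control and 25.7, 24.3, 27.4 and 27.6 CPM in ELAPOR1 libraries. Every ELAPOR1 library was above every control library, by a narrow margin in replicate 2. The log2 fold change was 0.15 (SE 0.0663, 95% interval 0.02 to 0.28) and was not called (adjusted p = 0.0577, edgeR). It was called when ELAPOR1 replicate 2 was left out (0.19, adjusted p = 0.0325) and when libraries were scaled by total counts (0.18, adjusted p = 0.0303).

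IFNAR2 (ENSG00000159110.19, chr21:33229901-33265675, plus strand), the chain that binds ligand with the higher affinity and carries JAK1, had 9.98, 10.5, 11.7 and 11.6 CPM in control and 10.1, 11.4, 8.13 and 11.5 CPM in ELAPOR1 libraries. The groups overlapped, and ELAPOR1 replicate 3 was the lowest library. The log2 fold change was -0.08 (SE 0.106, 95% interval -0.29 to 0.12, adjusted p = 0.551, edgeR), and without that replicate it was 0.0067. A readthrough transcript, AP000295.1, overlaps IFNAR2, so part of the IFNAR2 signal may be booked there. It took 50.6 expected counts in ELAPOR1 replicate 3 and 0 to 22.9 in the other ELAPOR1 libraries. In control libraries it took 4.27 to 52.4. With both summed the value was -0.16 and was not called (adjusted p = 0.152).

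The ratio of IFNAR1 to IFNAR2 was 2.16 ± 0.121 in control and 2.61 ± 0.528 in ELAPOR1 libraries (n = 4 and 4, SD; two-sided exact permutation p = 0.0857). This and 2 other within-library ratios were chosen after the values were seen, and adjusted over the 3 the p was 0.129. The ratio of IFNAR1 to IFNAR2 was highest in ELAPOR1 replicate 3 (3.36, against 2.13 to 2.55 in the other ELAPOR1 libraries). Without that library the log2 difference was 0.13, against 0.25 with it.

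The receptor kinases did not pass the test. JAK1 (ENSG00000162434.12, chr1:64833229-64966504, minus strand), which also serves the receptors of interferon gamma and of the interleukin 6 family, had 79.9 to 88.6 CPM in control and 84.5 to 90.2 CPM in ELAPOR1 libraries. Its log2 fold change was 0.04 (SE 0.0418, 95% interval -0.04 to 0.12, adjusted p = 0.474, edgeR). TYK2 (ENSG00000105397.13, chr19:10350529-10380676, minus strand), which also serves the receptors of interleukins 10, 12 and 23, had 63.9 to 71.7 and 64.6 to 70.3 CPM. Its log2 fold change was -0.0092 (95% interval -0.10 to 0.08, adjusted p = 0.891), and its sign turned under total count scaling (0.012). For both kinases the 95% interval reached to about 0.1 on the log2 scale, and a change within that interval is not excluded.

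Of the ISGF3 subunits IRF9 and STAT2, the first rose and the second fell. IRF9 (ENSG00000213928.8, chr14:24161053-24166565, plus strand), the subunit that recognises the response element, had 19.2, 18.2, 21.2 and 22.3 CPM in control and 30.9, 31.7, 29.01 and 28.7 CPM in ELAPOR1 libraries. The lowest ELAPOR1 library was above the highest control library by more than the spread within either group. Means were 20.2 ± 1.86 and 30.1 ± 1.45 CPM (n = 4 and 4, SD), a 1.49-fold rise and a log2 fold change of 0.57 (SE 0.0707, adjusted p = 3.3e-08, edgeR). The overlapping readthrough gene AL136295.5 was not called (0.51, adjusted p = 0.421), and the sum of both gave 0.56.

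STAT2 (ENSG00000170581.14, chr12:56341597-56360155, minus strand), which brings the activation domain to the complex, moved the other way. It had 84.4, 79.2, 84.1 and 82.4 CPM in control and 76.4, 69.2, 77.3 and 75.8 CPM in ELAPOR1 libraries. All 4 ELAPOR1 libraries were below all controls, replicate 2 by the widest margin. Means were 82.5 ± 2.37 and 74.7 ± 3.71 CPM (n = 4 and 4, SD), and the log2 fold change of -0.14 was called (SE 0.0433, adjusted p = 6.6e-03, edgeR). Without ELAPOR1 replicate 2 it was -0.11 and was no longer called (adjusted p = 0.0535). The 58 other tested genes within 1 Mb of STAT2 had a median of -0.12, with 14 above 0, so its change was close to that of its chromosomal neighbours.

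Since STAT2 fell while IRF9 rose, their ratio within each library, which no scaling between libraries can change, was taken. The ratio of IRF9 to STAT2 was 0.245 ± 0.0205 in control and 0.404 ± 0.0385 in ELAPOR1 libraries (n = 4 and 4, SD), a log2 difference of 0.72, and the groups did not overlap. The exact permutation p was 0.0286, two-sided, the smallest that 4 against 4 libraries allow, and 0.0857 adjusted over the 3 ratios. IRF9 was already higher and STAT2 lower in every ELAPOR1 library than in any control. The lack of overlap in the ratio and this smallest p were therefore fixed beforehand, and the p is no separate support.

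**Figure D3:**
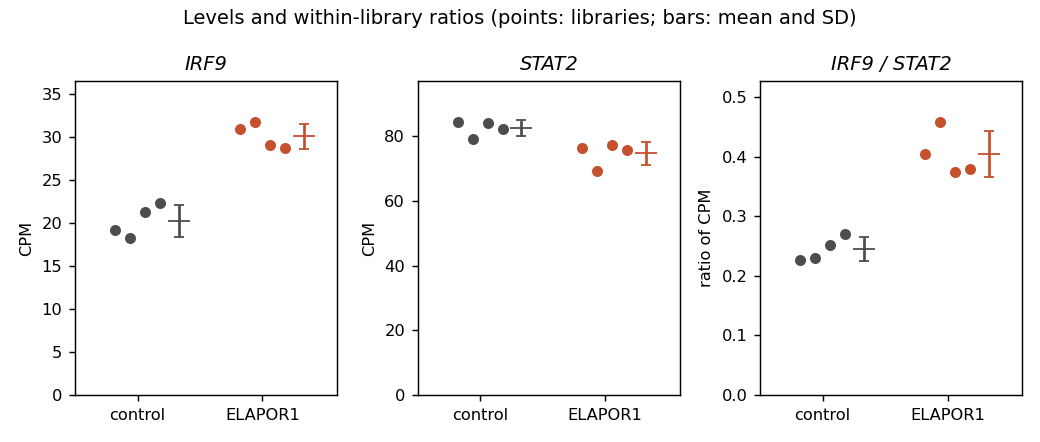
CPM of IRF9 and STAT2 and the within-library ratio of IRF9 to STAT2 (points, 4 libraries per group; bars, mean and SD; axes from 0). IRF9 and the ratio are higher in every ELAPOR1 library than in any control, while STAT2 is lower.

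Promoter windows from RefSeq (GRCh38.p14) were found for 7 of the 9 genes, 10 windows in all, and not for IFNAR2 and IRF7. Of the 10, 1 held GAAANNGAAA (SOCS1) and 1 held TTCNNNGAA (IRF9), each read on both strands. These stretches are shown, beside those of 2 interferon-stimulated genes that rose at least 2-fold, RSAD2 (viperin) and OAS3 (a sensor of double-stranded RNA), to let the letters be compared. Capitals mark the match, and each stretch runs 5′ to 3′ on the strand of its gene. The IRF9 stretch is chr14:24161192-24161220 (plus) and lies in annotated exon sequence of IRF9 and AL136295.5, with its match starting 63 bases before the RefSeq start. The SOCS1 stretch is chr16:11256298-11256327 (minus), with its match starting 113 bases before the start. Those of RSAD2, chr2:6877622-6877651 (plus), and OAS3, chr12:112938321-112938350 (plus), have theirs at 145 and 143 bases before the start. The RSAD2 match is on the opposite strand, where it reads as the repeat. OAS3 has a further match 12 bases before its start that is not shown. OAS1, which also rose at least 2-fold, held TTCNNNGAA and not GAAANNGAAA.
IRF9: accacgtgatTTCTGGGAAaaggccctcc
SOCS1: cgccaccgcgGAAAGAGAAAccaaaagtgg
RSAD2: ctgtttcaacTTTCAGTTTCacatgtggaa
OAS3: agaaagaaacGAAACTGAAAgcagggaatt
A match is a description of the sequence, not evidence of binding.

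IRF7 (ENSG00000185507.20, chr11:612553-615999, minus strand), the factor that in other cells enlarges an interferon response, was essentially unread. It had 1 count in control replicate 4 and none in the other libraries. The limit that 3 counts would set is 0.166 to 0.216 CPM per library, for counting error only, so no fold is given. IRF7 was the only one of the 9 without a measurable level in either group.

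SOCS1 (ENSG00000185338.5, chr16:11254405-11256200, minus strand), which blocks JAK kinases as a feedback inhibitor, was close to that limit too. It had 4, 3, 2 and 1 counts in control and 10, 5, 3 and 6 counts in ELAPOR1 libraries, or 0.222, 0.177, 0.120 and 0.061 against 0.614, 0.333, 0.216 and 0.346 CPM. The groups overlapped at control replicate 1 and ELAPOR1 replicate 3. Without the filter on low counts the log2 fold change was 1.33 and was not called (adjusted p = 0.196, edgeR). With 34 counts in all, a difference was not detected, and the counts are too few to show that there was none.

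SOCS1 lies within RMI2, a gene of the BLM helicase complex on the opposite strand. RMI2 had 16.9 ± 1.43 CPM in control and 25.3 ± 1.45 CPM in ELAPOR1 libraries (n = 4 and 4, SD), and the log2 fold change was 0.58 (adjusted p = 7.2e-08, edgeR). All 13 tested genes within 1 Mb of SOCS1 had a log2 fold change above 0, and their median was 0.34. Of the 13, 11 were called, against 44.7% of all tested genes. LITAF, the tested neighbour on the other side, gave 0.20. Whether the few SOCS1 counts come from RMI2 RNA was not tested.

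**Figure D4:**
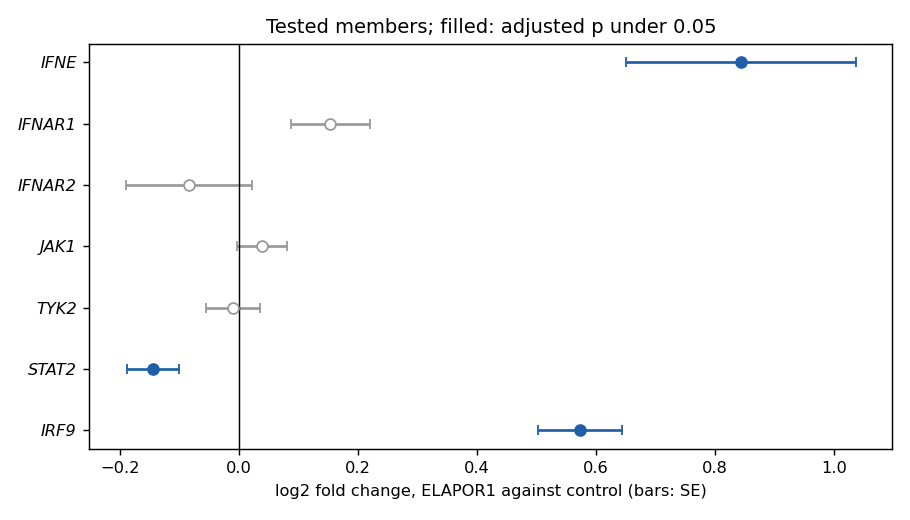
Log2 fold change (ELAPOR1 against control) with its SE for the 7 tested genes; filled points have an adjusted p under 0.05. IFNE (0.84) and IRF9 (0.57) lie to the right, STAT2 (-0.14) to the left, and the receptor chains and kinases near 0.

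To set the genes against each other, CPM was divided by exon length in kilobases. In control libraries the order of these levels was STAT2 (13.5 ± 0.388) and JAK1 (13.5 ± 0.632), TYK2 (10.1 ± 0.489), IRF9 (5.33 ± 0.491), IFNAR1 (3.74 ± 0.081), IFNAR2 (2.37 ± 0.181) and IFNE (1.84 ± 0.335), with SOCS1 (0.081 ± 0.039) and IRF7 far below (SD, n = 4). STAT2 and JAK1 did not differ beyond their spread, and from JAK1 to SOCS1 the ranges of neighbours did not overlap. In ELAPOR1 libraries JAK1 (13.9 ± 0.379) came first, before STAT2 (12.2 ± 0.607), TYK2 (10.0 ± 0.399) and IRF9 (7.93 ± 0.383). IFNAR1 (4.16 ± 0.248), IFNE (3.33 ± 0.823) and IFNAR2 (2.22 ± 0.338) followed. The ligand, lowest of the 7 tested genes in control libraries, thus ranged from 2.15 to 3.95 CPM per kilobase in ELAPOR1 libraries and overlapped both receptor chains, IFNAR1 at its upper and IFNAR2 at its lower end. These IFNE levels may include unspliced MIR31HG RNA.

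The wider pathway was read from lists written with earlier results of these data known. Of 10 JAK kinases and STAT factors, all tested, 1 was called higher and 2 lower, and the median was 0.03. The share called was 30%, against 44.7% of all tested genes. STAT3, a factor of interleukin 6 signalling, rose by a log2 fold change of 0.12 (adjusted p = 0.0162, edgeR). That call was lost without control replicate 2 (adjusted p = 0.0577) and without ELAPOR1 replicate 3 (adjusted p = 0.0529). JAK3, the kinase of the common gamma chain, fell by 0.86 from 8.42 ± 1.27 to 4.599 ± 0.982 CPM (n = 4 and 4, SD, adjusted p = 8.8e-06).

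Of 12 interferon regulatory factors and their binding proteins, 9 were tested, 2 were called higher and 1 lower, with a median of -0.02. The share called of those tested was 33.3%, against 44.7% of all tested genes. IRF1, an interferon-induced activator, rose from 32.7 ± 1.70 to 42.0 ± 1.13 CPM (n = 4 and 4, SD), and the log2 fold change was 0.36 (adjusted p = 2.6e-06, edgeR). IRF2BPL, a partner of IRF2, fell by 0.20 (adjusted p = 5.9e-03). IRF9 had the larger change of the 2 factors that rose.

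Of 16 negative regulators tested, 3 were called higher and 4 lower, or 43.8%, near the 44.7% of all tested genes. USP18, which displaces JAK1 from IFNAR2, rose from 12.1 ± 1.61 to 17.0 ± 0.280 CPM (n = 4 and 4, SD), and the log2 fold change was 0.48 (adjusted p = 3.5e-05, edgeR). SOCS3, the inhibitor of interleukin 6 receptor signalling, fell by 0.38 (adjusted p = 1.0e-06), and PTPN2, a phosphatase of JAK1, fell by 0.37 (adjusted p = 2.8e-09). SOCS4 and SOCS5 were the others called higher, and SOCS2 and PTPN6 the others called lower.

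Among the genes of interferon gamma and interferon lambda and their receptors, 4 of 9 were tested, and the ligands were not among them. IFNGR2, the accessory chain of the gamma receptor, fell by 0.19 on the log2 scale at the edge of the threshold (adjusted p = 0.0459, edgeR), and the median of the 4 was -0.14. IFNGR2 was the only gene of the 4 called, or 25%, against 44.7% of all tested genes. Other chains of cytokine receptors that use JAK1 or TYK2 had 3 called higher and 2 lower of 11 tested, with a median of -0.05. The share called was 45.5%, near the 44.7% of all tested genes. IL6ST, the shared chain of the interleukin 6 family, rose by 0.18 (adjusted p = 6.7e-05), IL27RA rose by 0.55 (adjusted p = 0.0319) and IL11RA fell by 0.88 (adjusted p = 0.0169). The IL27RA call was lost with the DESeq2 Wald test (adjusted p = 0.0551), without the filter on low counts (0.0514) and without any 1 of control replicates 1, 2 and 3 or ELAPOR1 replicates 1, 3 and 4 (adjusted p up to 0.133). The IL11RA call was lost without control replicate 1 or 3 or ELAPOR1 replicate 3 or 4 (adjusted p up to 0.0684). That of IFNGR2 was lost in 11 alternatives, among them total count scaling (adjusted p = 0.0762).

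Of 44 interferon-stimulated genes, all tested, 32 (72.7%) were called higher, against 22.6% of all tested genes. None was called lower, and 12 were not called. The log2 fold change was above 0 for 41, and DDX60, IFITM2 and IFITM3, picked out after their values were seen, gave -0.08, -0.05 and -0.05. Their median was 0.44, against 0.00087 for all tested genes. OAS2, which makes the activator of RNase L, rose from 21.8 ± 3.04 to 61.4 ± 3.75 CPM (n = 4 and 4, SD), and the log2 fold change was 1.49 (adjusted p = 9.2e-15, edgeR). CMPK2, a mitochondrial nucleotide kinase, rose by 1.38 (adjusted p = 2.2e-13), and XAF1, a proapoptotic factor, rose by 1.36 (adjusted p = 7.8e-10).

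The mean log2(CPM + 1) of the 44 genes was 5.29, 5.17, 5.36 and 5.27 in the control replicates and 5.79, 5.73, 5.86 and 5.78 in the ELAPOR1 replicates. The groups did not overlap, and whether these values follow the level of IFNE was not tested. The list shares no gene with the 9, and since the genes were chosen with earlier results known, its count is a description.

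**Figure D5:**
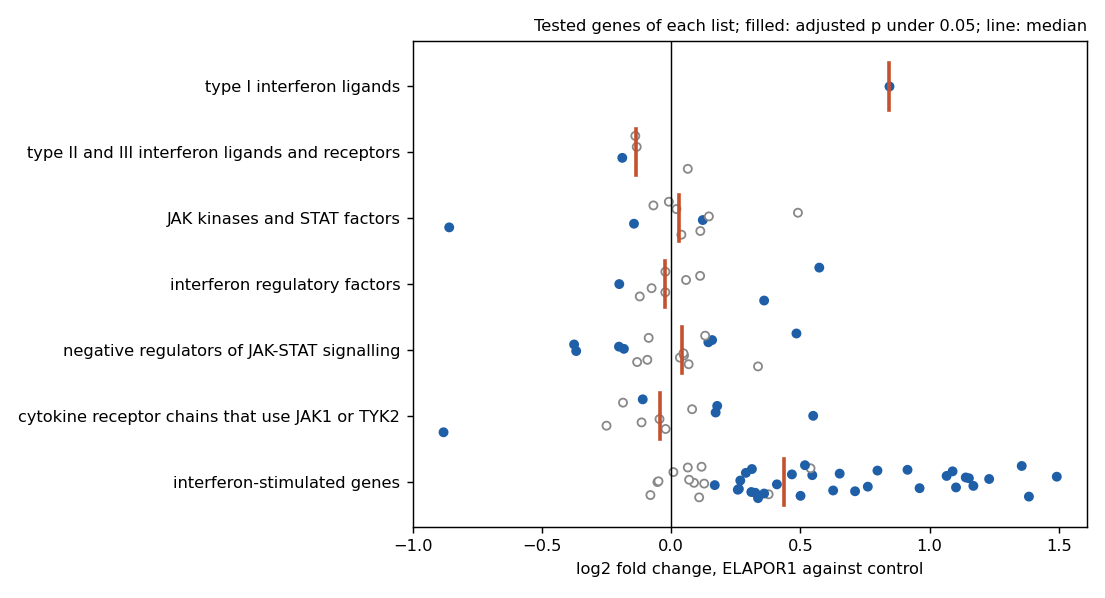
Log2 fold change (ELAPOR1 against control) of each tested gene (points, filled where the adjusted p is under 0.05) in 7 lists of the interferon and JAK-STAT pathway, with the median of each list as a line. The interferon-stimulated genes lie mostly to the right of 0 (median 0.44), while the receptors, kinases, regulatory factors and inhibitors have medians between -0.14 and 0.04.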

How the data were processed

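RNA of 4 control and 4 ELAPOR1 libraries of Panc 10.05 was sequenced. The authors deposited RSEM expected counts per gene, not scaled between libraries, and 15.0% of nonzero values were not whole. Per the submitters' processing notes, cutadapt, STAR, RSEM, DESeq2 and hg38 were used. Versions, annotation release and use of strand were not given in the sources used here, so reads of overlapping genes could go to either. Of the gene identifiers, 58597 were found in GENCODE 29 without their version and 47456 with it. Coordinates are from that release.

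After rounding, the expected counts entered edgeR 4.0.16 under R 4.3.3 (filterByExpr, TMM, robust glmQLFit and glmQLFTest, two-sided, no covariate), with Benjamini-Hochberg adjustment over 13860 genes and a threshold of 0.05. The standard error is the log2 fold change divided by the square root of F. The procedure was tested on simulated data. All pairs of replicates differed by more than sampling noise (chi-square per degree of freedom 1.94 to 6.12). Totals of 13765504 to 18128732 counts per library set the precision, and IRF7 and SOCS1 fell below the filter. Limits of 3 counts cover counting error only. Ratios were compared with exact permutation tests. Motifs were searched in 35116 RefSeq windows (GRCh38.p14).

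The 9 genes and 8 lists were chosen with earlier results of these data known. The genes named are the 9, the 3 called genes of each list with the largest change and a mean of at least 1 CPM, the detected genes at 9p21, the neighbours of IFNE and SOCS1, and the 3 genes most like IFNE. SOCS2, SOCS4, SOCS5, PTPN6, RMI2, PTPRC, the readthrough genes, IFNB1, IFNA5, RSAD2, OAS3, OAS1 and the 3 ratios were added after values were seen. Alternatives were leaving out each library in turn, a replicate block, a filter of 1 count in all or of 10 in every library, DESeq2 size factors, total count scaling, the DESeq2 1.42.0 Wald test, limma-voom (limma 3.58.1) and an adjusted p under 0.01. The summing of overlapping genes on 1 strand was added after seeing the data. Results that need certain withheld genes are not reported here, and those genes were left out of the lists and ratios.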

Additional observations from a re-analysis of the deposited data

Results flagged for a closer look

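Among 58 groups of 4 libraries examined, 2 held an outlying library by Dixon's test at 95%. Its distance from its nearest fellow, divided by the range of the group, was above the critical value. Chance gives about 1 in 20, or 2.9. IFNE in control replicate 3 was 1.98 CPM, against 2.88 to 3.01 CPM in the other control libraries, and without that library its log2 fold change was 0.72 and still called (adjusted p = 4.2e-03, edgeR). SOCS3 in 1 control library was 46.5 CPM, against 50.9 to 51.7 CPM in the others.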

How the results depend on the processing

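The calls of IFNE (0.72 to 1.01 over the libraries left out in turn) and IRF9 (0.53 to 0.62) held under every alternative run. STAT2 ranged from -0.16 to -0.11 and lost its call without ELAPOR1 replicate 2. IFNAR1 ranged from 0.13 to 0.19 and was called at 0.18 under total count scaling. IFNAR2 ranged from -0.14 to 0.0067. TYK2 ranged from -0.040 to 0.014 and was 0.012 under total count scaling; the causes were not tested. The number of the 9 genes called was 3 to 4, and of all genes 4682 (adjusted p under 0.01) to 6226, or 5557 to 6316 with a library left out. The 1 gene called among interferon gamma and lambda genes, IFNGR2, lost its call under total count scaling and without the filter. The call was also lost with the replicate block, the DESeq2 Wald test and limma-voom. The number called there was 0 to 1 with a library left out. Interferon regulatory factors called ranged from 3 to 5, and cytokine receptor chains from 2 to 6. JAK kinases and STAT factors called ranged from 2 to 4. STAT3 and IL11RA lost their calls without some libraries, and IL27RA also with the DESeq2 Wald test and without the filter.

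Replicate numbers did not pair the libraries: correlations of same-numbered deviations ran from -0.021 to 0.033. With the replicate number as a block, 5926 genes were called, 3 of the 9 among them. Depth limits IFNE, SOCS1 and IRF7 most.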
